A study of Mus musculus with 36 samples.

Results

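Usp2, Per1, Per2, Per3, Dbp, Tef, Nr1d1, Nr1d2, Ciart and Bhlhe40 are genes of the circadian clock and of its output, and their levels were followed in mouse intestinal organoids under 6 treatments. These 10 genes, of the 52636 listed in the counts, were taken from a list of symbols. That list and the other gene lists were chosen with earlier results of these data known. The p values below take no account of that choice. Usp2 was chosen by its fall in senescent medium, so comparisons of its level that use that medium, complete media + IgG or QCM + IgG are a description with no test, and Usp2 is left out of their counts of calls. All 10 passed the filter on low counts, which kept 15497 genes.

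The organoids were grown from jejunal crypts of C57BL/6 mice, and the study's design names 6 mice. Complete media is the commercial organoid medium IntestiCult, and 6 libraries came from organoids in it with the control antibody IgG (complete media + IgG). QCM is medium conditioned by quiescent, serum-deprived mouse embryonic fibroblasts (QCM + IgG), and SCM is medium conditioned by senescent ones (SCM + IgG and SCM + anti-Ptk7). In the study's methods the fibroblasts were made senescent by X-ray or doxorubicin. The remaining groups received complete media with Wnt5a, a ligand of noncanonical Wnt signalling (Wnt5a + IgG and Wnt5a + anti-Ptk7). Anti-Ptk7 is an antibody to the Wnt co-receptor Ptk7, and complete media and QCM with this antibody were not analysed here. Each group had 6 libraries from a culture of 2 days. Every group carried an antibody, IgG or anti-Ptk7, and only the conditioned media also carried secreted products of fibroblasts. In the study's methods the conditioned medium was collected without serum, concentrated and combined with IntestiCult, in a proportion that they do not give. Comparisons of QCM or SCM with a group in complete media cannot tell the fibroblast products from this change of the medium. The time of day at harvest is not given in the sources used here, and each library is 1 time point, so neither the phase nor the amplitude of a rhythm was measured.

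The clock is a feedback loop of transcription. Clock and its partner Arntl (Bmal1) bind E-boxes and switch on the Per and Cry genes, the nuclear receptor genes Nr1d1 and Nr1d2, and output genes such as Dbp, and the Per and Cry proteins then hold back this activity. Nr1d1 and Nr1d2 repress Arntl, while Dbp and Tef, activators of the PAR bZIP family, act through D-boxes. In the intestine the clock is known for daily rhythms of digestion, absorption and cell division.

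Promoter sequence is shown here because these genes are textbook targets of the same few elements, while their levels moved in different directions. RefSeq windows (build GRCm38.p6, from 250 bases before to 50 after each start site) were at hand for Usp2, Per1, Per3, Dbp, Tef, Nr1d1, Nr1d2 and Ciart, and not for Per2 and Bhlhe40. Both strands were searched for the E-box CACGTG, the E'-box CACGTT, the D-box TTATGTAA or TTATGCAA, the cAMP response element TGACGTCA, and the REV-ERB/ROR element. Of 32851 windows over all genes, 7.15% held the E-box, 4.68% the E'-box, 1.66% the D-box, 1.79% the cAMP response element and 0.219% the REV-ERB/ROR element. The Ciart window held 3 E-boxes, which begin 116, 58 and 44 bases before the start site. The Per3 window held 2 D-boxes. Of the 2 Per1 windows, window 1 held 1 E-box and 1 D-box and window 2 held none of the elements. Each of the 2 Tef windows held 1 E-box, and the Nr1d1 window held 1 E'-box, read on the opposite strand. No 2 of these matches overlapped, and none of the 5 elements was in the windows of Usp2, Dbp and Nr1d2. The Usp2 window, chr9:44084670-44084969, lies inside the gene, whose annotated start is at 44067021. Both Per1 windows also lie inside their gene. Sequence at these annotated starts, and elements elsewhere outside the windows, were not searched. The stretches with the matches are given 5′ to 3′ on the strand of the gene, with the element in capitals.
Ciart, chr3:95882255-95882356, minus strand: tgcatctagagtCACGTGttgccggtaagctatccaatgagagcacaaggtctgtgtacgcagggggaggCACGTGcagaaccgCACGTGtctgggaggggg
Per3, chr4:151044804-151044882, minus strand: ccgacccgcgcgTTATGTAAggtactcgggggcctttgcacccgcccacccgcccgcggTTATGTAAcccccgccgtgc
Per1, window 1, chr11:69098771-69098944, plus strand: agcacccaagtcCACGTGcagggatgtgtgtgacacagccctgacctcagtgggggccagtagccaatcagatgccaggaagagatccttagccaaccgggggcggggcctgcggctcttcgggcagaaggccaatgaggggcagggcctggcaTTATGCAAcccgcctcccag
Tef, window 1, chr15:81802534-81802563, plus strand: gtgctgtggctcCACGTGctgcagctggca
Tef, window 2, chr15:81811264-81811293, plus strand: cacctggcccagCACGTGtctacatcgttt
Nr1d1, chr11:98775388-98775417, minus strand: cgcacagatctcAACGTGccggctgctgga

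The libraries held between 9581589 and 21029769 counts, with a median of 13490071. Levels are in CPM, counts relative to the library total after TMM scaling, and fold changes are log2 values from the quasi-likelihood fit of edgeR with their standard error (SE). A call needs both a fold change of over 1.5 and a p value below 0.05 after adjustment over all genes. The epithelial markers Epcam and Vil1 were at 1807 CPM or more and at 547 CPM or more in all 36 libraries. Of 7 fibroblast markers, Col3a1, Dcn and Thy1 had no count in any library, and the highest count of Col1a1, Col1a2, Lum and Pdgfra was 16. Summed over the 7, fibroblast markers ranged from 0 to 1.32 CPM. Among blood cell markers, Ptprc did not exceed 25 counts. The SCM + IgG library of replicate 1 and the SCM + anti-Ptk7 library of replicate 4 were least like their own groups, with median correlations of 0.949 and 0.947 against 0.951 to 0.978 for the others.

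At 2 days in complete media the genes differed widely in level. Per kilobase of coding sequence, Bhlhe40 stood at 150 CPM, Tef at 51.6, Nr1d1 at 14.9, Ciart at 11.9 and Usp2 at 8.21, while Nr1d2, Per2, Per1 and Dbp were between 5.56 and 6.26 and Per3 was at 1.70. Per kilobase of all exons Bhlhe40 remained first at 39.7, but Tef, whose exons are mostly non-coding, was at 6.59, below Nr1d1 at 8.96. The counts behind a library's value ranged from 2 to 161 for Dbp and from 1696 to 6475 for Bhlhe40, and Dbp, Per3, Usp2 and Ciart had the fewest counts, with medians of 72 to 105.5.

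Usp2 encodes a deubiquitinating enzyme whose RNA follows the clock (chr9:44067021-44095627, plus strand). In complete media its level had a lowest, median and highest value of 14, 16.1 and 24.8 CPM. In QCM these were 8.10, 9.29 and 9.89 CPM. In SCM they were 1.82, 4.02 and 9.62 CPM with IgG. All 6 libraries in complete media lay above all 30 others, and QCM was a narrow band between complete media and most of the SCM libraries. With anti-Ptk7 in SCM the values were 3.08, 6.92 and 8.76 CPM. Wnt5a + IgG gave 4.43, 7.22 and 9.33 CPM, and Wnt5a + anti-Ptk7 gave 1.26, 5.88 and 8.43 CPM. Below complete media, every group overlapped the next in order of mean, so the ranking of these 5 groups rests on means within their spread. The means were 17 ± 3.97 CPM in complete media, 9.20 ± 0.630 in QCM, 7.07 ± 1.65 in Wnt5a + IgG, 6.13 ± 2.23 in SCM + anti-Ptk7, 5.86 ± 2.58 in Wnt5a + anti-Ptk7 and 4.73 ± 2.84 in SCM + IgG (SD, n = 6 each).

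**Figure D1:**
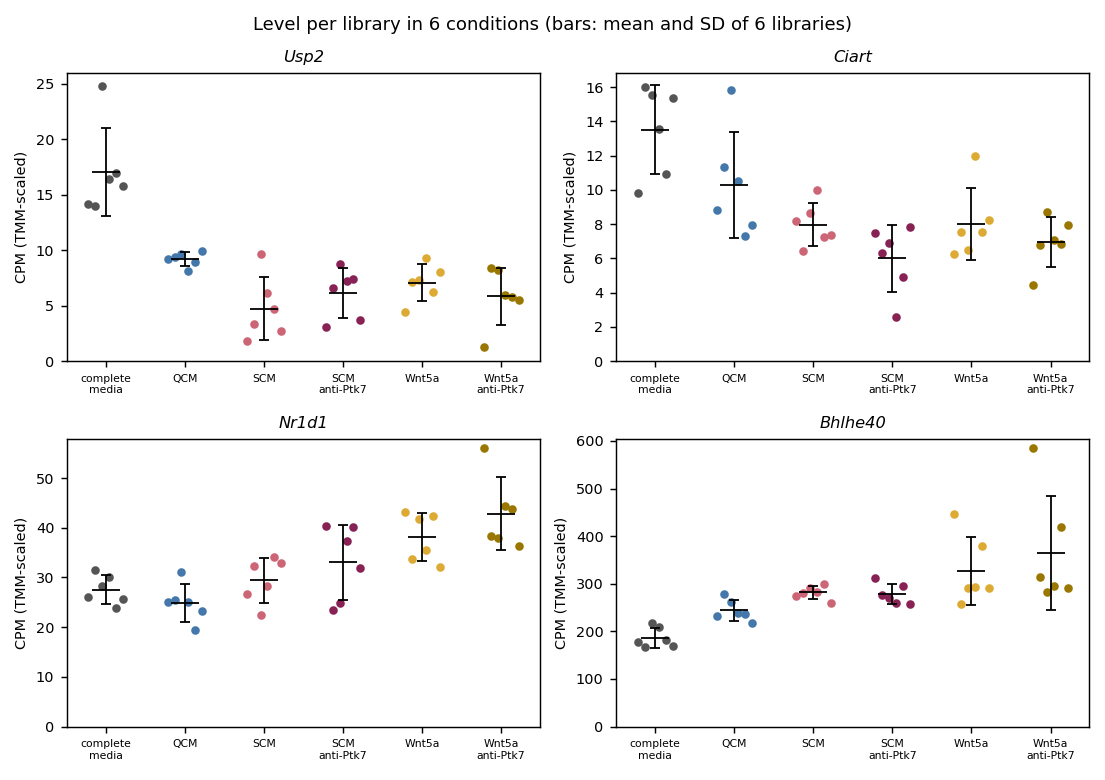
Level in CPM (TMM-scaled, linear axis from 0) of Usp2, Ciart, Nr1d1 and Bhlhe40, 1 point per library, with the mean and SD of the 6 libraries of each condition; groups without anti-Ptk7 carried IgG. Usp2 and Ciart have their highest mean in complete media, at 17 and 13.5 CPM, where Bhlhe40 has its lowest, at 187 CPM.

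Ciart, a repressor of Clock and Arntl activity (chr3:95878503-95882251, minus strand), had the same 2 groups on top. It had a lowest, median and highest value of 9.81, 14.5 and 16 CPM in complete media. The values were 7.34, 9.68 and 15.8 CPM in QCM and 6.44, 7.78 and 9.97 CPM in SCM + IgG. They were 6.27, 7.55 and 12 CPM in Wnt5a + IgG. The ranges overlapped between all neighbours in the order, and the highest SCM + IgG library lay just above the lowest in complete media. With anti-Ptk7 the values were 2.56, 6.62 and 7.83 CPM in SCM and 4.42, 6.96 and 8.71 CPM in Wnt5a.

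Bhlhe40, a basic helix-loop-helix repressor that competes for E-boxes (chr6:108660629-108666925, plus strand), went the other way. Its lowest, median and highest values were 168, 179 and 217 CPM in complete media and 217, 238 and 278 CPM in QCM, and the 2 ranges just failed to overlap. They were 259, 282 and 300 CPM in SCM + IgG and 258, 274 and 312 CPM in SCM + anti-Ptk7. In Wnt5a + IgG they were 258, 293 and 446 CPM, and in Wnt5a + anti-Ptk7 283, 304 and 584 CPM. All libraries of the 4 groups with SCM or Wnt5a lay above all those in complete media, and the spread was largest with Wnt5a.

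Nr1d1, the heme-sensing nuclear receptor REV-ERB alpha (chr11:98767932-98775333, minus strand), was lowest in QCM at 19.4, 25.1 and 31.2 CPM and next in complete media at 23.9, 27.1 and 31.5 CPM. It had 22.4, 30.3 and 34.1 CPM in SCM + IgG and 23.4, 34.6 and 40.4 CPM in SCM + anti-Ptk7. With Wnt5a all 12 libraries lay above those of QCM and of complete media, at 32.1, 38.7 and 43.1 CPM with IgG and 36.4, 41.1 and 56.1 CPM with anti-Ptk7. Its paralog Nr1d2, REV-ERB beta (chr14:18204054-18239127, minus strand), had the same groups at its ends, from a mean of 9.71 ± 3.35 CPM in QCM to 17 ± 2.01 CPM in Wnt5a + anti-Ptk7 (SD, n = 6 each).

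For the period genes and the PAR bZIP genes the means of the groups are given. Per1 (chr11:69095217-69109960, plus strand) had its highest mean in complete media, 22.5 ± 6.29 CPM, and its lowest in SCM + anti-Ptk7, 14.8 ± 3.85 CPM. Per2 (chr1:91415982-91459324, minus strand) had means between 19.1 and 23.3 CPM. Per3 (chr4:151003652-151044665, minus strand) had means between 5.58 and 6.18 CPM in 5 groups and 9.11 ± 1.92 CPM in Wnt5a + anti-Ptk7. Dbp (chr7:45705088-45710203, plus strand) had means between 5.12 and 5.59 CPM in 5 groups and 3.42 ± 1.87 CPM in SCM + IgG. Tef (chr15:81802421-81826863, plus strand) had means between 43.0 and 56.6 CPM. For these 5 genes and Nr1d2, each group's range overlapped that of its neighbour in the order.

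**Figure D2:**
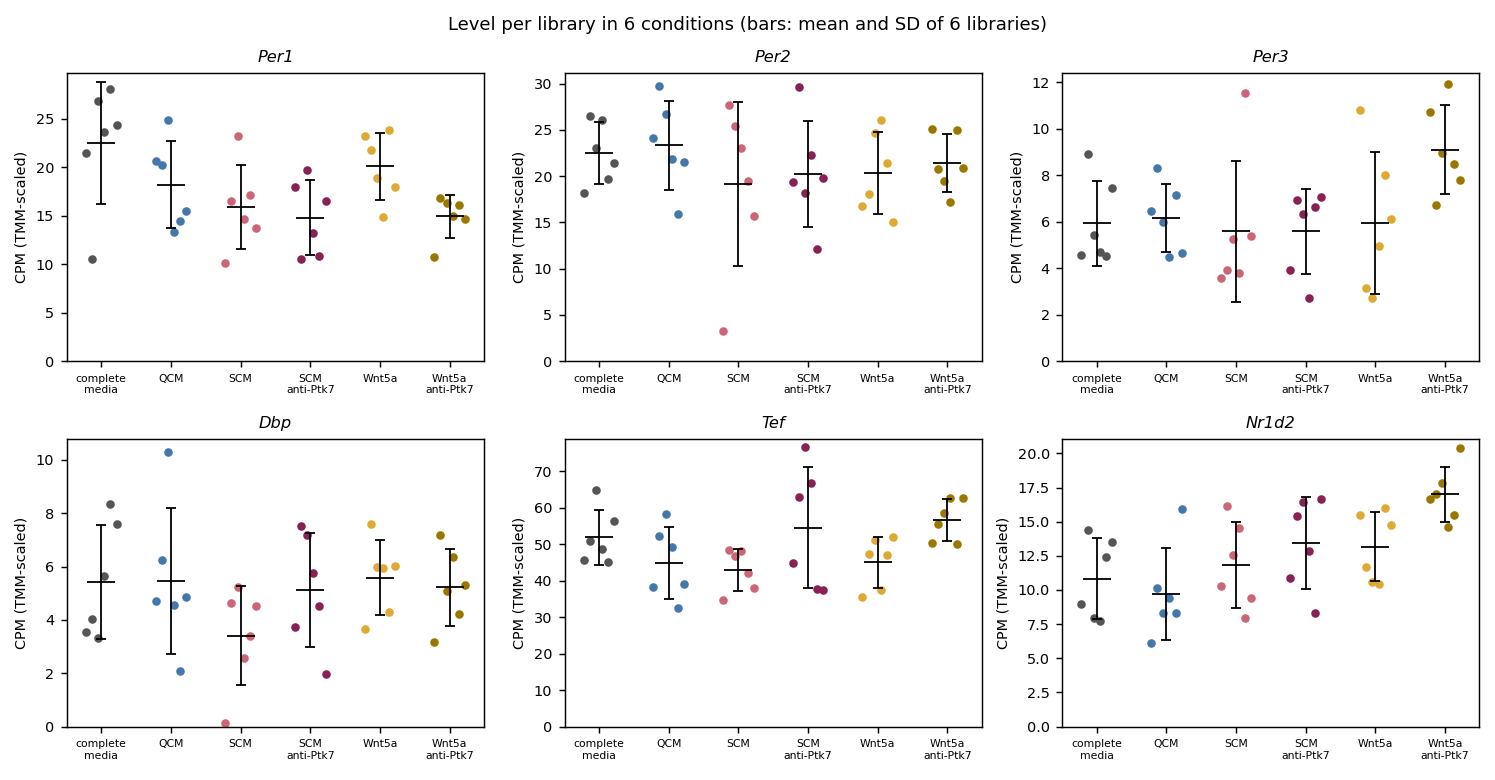
Level in CPM (TMM-scaled, linear axis from 0) of Per1, Per2, Per3, Dbp, Tef and Nr1d2, 1 point per library, with the mean and SD of the 6 libraries of each condition. Groups that neighbour each other in mean overlap, and in SCM + IgG 1 library, replicate 1, lies at 3.26 CPM for Per2 and at 0.130 CPM for Dbp.

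In SCM + IgG the library of replicate 1 had 2 counts of Dbp (0.130 CPM) where the other 5 had 2.58 to 5.25 CPM, and 3.26 CPM of Per2 where the others had 15.7 to 27.7 CPM. It also had the lowest Usp2 of its group. Results that rest on SCM + IgG are therefore given with and without it where they changed by over 1.5 times.

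Several of the genes overlap others on the opposite strand, and whether counting used the strand is not given in the sources used here. In GENCODE, exons of Nr1d1 share 263 bases with Thra and exons of Dbp share 539 bases with Sphk2, of which 197 and 213 are coding in Nr1d1 or Dbp. Usp2 shares 200 exonic bases with Gm39325 and Gm49380, Tef 193 with Gm17597 and Bhlhe40 118 with 0610040F04Rik. Of these, 0 are coding in Usp2, 0 in Tef and 22 in Bhlhe40. The study's methods state that reads in coding sequences were counted. Reads from shared coding bases cannot be assigned to 1 gene without the strand.

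The first comparison asked what medium from quiescent fibroblasts did to organoids. Against complete media, Usp2 differed by −0.89 (SE 0.30), which is not tested here. Bhlhe40 differed by 0.39 (SE 0.13, adjusted p = 0.19), Ciart by −0.39 (SE 0.21, adjusted p = 0.46) and Per1 by −0.31 (SE 0.20, adjusted p = 0.57). The differences of Tef and Nr1d1 were −0.21 (SE 0.15) and −0.15 (SE 0.14), and those of the other 4 genes were smaller than their SE. Without 1 library, Per1 moved to −0.47 (replicate 2 of complete media + IgG) and Nr1d1 to −0.23 (replicate 3 of QCM + IgG). By edgeR 0 of the 9 genes other than Usp2 were called, against 0.355% of all genes called higher and 0.0194% called lower. Of these 9, 1 (Bhlhe40) had an unadjusted p under 0.05, and both voom fits with limma and DESeq2 also called 0. Of the 9, Bhlhe40 alone had libraries that did not overlap between the groups, which held for 1.38% of all genes in the higher and 0.361% in the lower direction. Those of Usp2 did not overlap either, and are not set against these shares. RNA of a whole culture cannot tell fewer cells of a type from less RNA per cell, and 3 of 7 enterocyte and 1 of 6 enteroendocrine markers were called higher in QCM. The summed level of the 7 enterocyte markers was 1774 to 2242 CPM in QCM and 1269 to 2105 CPM in complete media, and the part of these markers was not tested.

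SCM + IgG against complete media + IgG holds the fall of Usp2 for which the gene was chosen, so Usp2 is not tested here, and of the other 9 genes the edgeR calls are counted with no p printed. Usp2 was lower by a log2 fold change of −1.84 (SE 0.31), and by −1.68 without replicate 1 of SCM + IgG. Ciart had −0.76 (SE 0.21), Dbp −0.67 (SE 0.40), Per1 −0.50 (SE 0.20) and Tef −0.27 (SE 0.15), whereas Bhlhe40 had 0.59 (SE 0.13). The value of Dbp was −0.43 without replicate 1 of SCM + IgG, and the 2 voom fits took it down, to −1.24 with TMM scaling. The differences of Per2, Per3, Nr1d1 and Nr1d2 were smaller than their SE. Of the 9 genes other than Usp2, Ciart met the lower call and Bhlhe40 the higher call, beside 1.12% and 4.96% of all genes, and nothing is read from these counts. Of these 9, Bhlhe40 alone had libraries that did not overlap between the groups, beside 3.76% of all genes in the higher and 2.53% in the lower direction. Those of Usp2 did not overlap either, which is the fall it was chosen for. The value of Bhlhe40 lay at the fold-change cutoff, and in 17 of 45 alternative settings, whose values were 0.55 to 0.63, it fell below it. Per1 met the lower call without replicate 2 of complete media + IgG (−0.66) or without replicate 3 of SCM + IgG (−0.64). Over the 9 genes other than Usp2 the median of the log2 fold changes was −0.23, beside 0.01 over all genes tested. Here 4 of 7 enterocyte markers were called higher, with a summed level of 2041 to 2601 CPM in SCM + IgG, and 5 of the 7 had values above 0. Of the other cell markers, 2 of 6 epithelial (Krt8 and Krt18) and 1 of 4 tested Paneth cell markers (Mmp7) were called higher and 1 of 4 stem cell markers (Smoc2) lower. The part of these markers was not tested.

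Wnt5a + IgG against complete media + IgG shares the control libraries of both comparisons above, so its values are set beside theirs and not counted as a second observation. Bhlhe40 rose by 0.81 (SE 0.13, adjusted p = 3.78e-05), with all 6 libraries above those in complete media. Ciart fell by 0.75 on the log2 scale (SE 0.21, adjusted p = 0.00837), with overlapping libraries. Nr1d1 was higher by 0.47 (SE 0.14, adjusted p = 0.0112) in all 6 libraries, short of the fold-change cutoff. Usp2 differed by −1.26 (SE 0.31), not tested. Nr1d2 differed by 0.28 (SE 0.20, adjusted p = 0.36) and Tef by −0.20 (SE 0.15, adjusted p = 0.38), and the other 4 differences were smaller than their SE. By voom with quantile normalization the value of Nr1d2 was 0.18. Of the 9 genes other than Usp2, 1 was called higher and 1 lower, against 8.29% and 1.88% of all genes. The libraries of Nr1d1 and Bhlhe40 did not overlap between the groups, both higher, which held for 6.85% of all genes in the higher and 4.81% in the lower direction. Those of Usp2, lower, did not overlap either. Markers of tuft cells, the chemosensory cells of the epithelium, were called higher for 3 of 4, with a summed level of 19.5 to 36.1 CPM against 6.93 to 12.1 CPM in complete media. Also called higher were 3 of 6 epithelial, 3 of 7 enterocyte and 1 of 4 tested Paneth cell markers, and 1 of 4 stem cell markers was called lower. Of the 7 enterocyte markers 4 had values above 0, and their sum was 1230 to 2207 CPM in Wnt5a + IgG. The part of these markers was not tested.

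**Figure D3:**
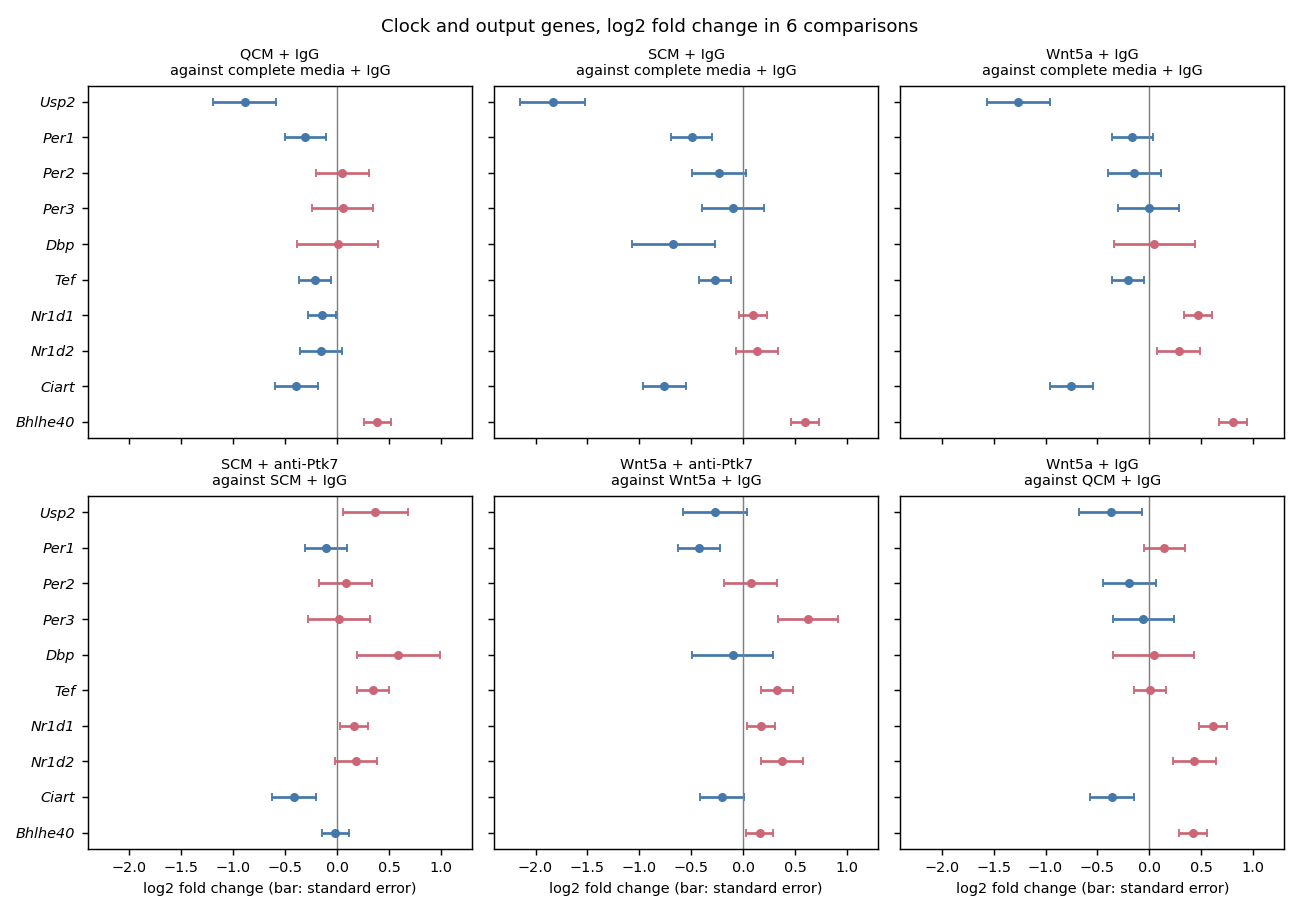
Log2 fold change (x axis) of the 10 genes in 6 comparisons, with the standard error of the fit as bars; red points are above 0 and blue points below. The 3 upper panels share the complete media + IgG libraries, and in each Usp2 has the lowest value and Bhlhe40 the highest.

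SCM against QCM, both with IgG, compares media conditioned by fibroblasts in either state. Usp2 differed by −0.95 (SE 0.31), not tested, and the 2 groups overlapped through 1 SCM library, replicate 3 at 9.62 CPM. Dbp differed by −0.68 (SE 0.40, adjusted p = 0.39), which became −0.41 without replicate 1 of SCM + IgG, −0.39 without replicate 3 of QCM + IgG and −1.15 by voom with TMM. Ciart differed by −0.37 (SE 0.21, adjusted p = 0.38), Nr1d2 by 0.29 (SE 0.20, adjusted p = 0.50), Nr1d1 by 0.24 (SE 0.14, adjusted p = 0.38) and Bhlhe40 by 0.21 (SE 0.13, adjusted p = 0.44). Per2 differed by −0.29 (SE 0.26, adjusted p = 0.62), and by −0.05 without replicate 1 of SCM + IgG and −0.54 and −0.52 by voom with quantile normalization and with TMM. Ciart was at −0.20 without replicate 3 of QCM + IgG. Nr1d2 was at 0.51 without replicate 6 of QCM + IgG, and at 0.18 without replicate 1 of QCM + IgG or replicate 2 of SCM + IgG. EdgeR called 0 of the 9 genes other than Usp2, against 0.761% of all genes called higher and 0.142% called lower. None of the 9 had an unadjusted p under 0.05, and DESeq2 and both voom fits called 0. Libraries overlapped between the groups for all 10. Among the cell markers 1 was called, Mmp7 of Paneth cells, higher in SCM.

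In Wnt5a + IgG against QCM + IgG, Nr1d1 rose by 0.61 (SE 0.14, adjusted p = 0.00115), and all 6 libraries lay above those of QCM. Bhlhe40 was higher by 0.42 (SE 0.13, adjusted p = 0.0181), short of the fold-change cutoff. Nr1d2 differed by 0.43 (SE 0.20, adjusted p = 0.12) and Ciart by −0.36 (SE 0.21, adjusted p = 0.22). Without replicate 6 of QCM + IgG the value of Nr1d2 was 0.67 (edgeR adjusted p = 0.0116) and met the call, and without replicate 3 that of Ciart was −0.19. The difference of Usp2 was −0.37 (SE 0.30), not tested. Nr1d1 was the only one of the other 9 called by edgeR, against 6.19% of all genes called higher and 3.15% called lower. It was also the 1 gene of the 9 whose libraries did not overlap, beside 4.96% of all genes in the higher direction. Called higher were 3 of 4 tuft cell and 3 of 6 epithelial markers, and called lower were 2 of 5 goblet cell and 1 of 7 enterocyte markers, whose part was not tested. The call of Nr1d1 was lost, with its value still 0.55 or more, by voom with quantile normalization, the study's method, and without replicate 5 of QCM + IgG or replicate 5 of Wnt5a + IgG.

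SCM + anti-Ptk7 against QCM + IgG changes medium and antibody together. Ciart fell by 0.78 on the log2 scale (SE 0.21, adjusted p = 0.0158), with overlapping libraries. Without replicate 3 of QCM + IgG, the highest of that group, its value was −0.61 and the call was lost. The call of Ciart was also lost when only the groups compared were fitted. Nr1d1 differed by 0.41 (SE 0.14, adjusted p = 0.0507) and Nr1d2 by 0.46 (SE 0.20, adjusted p = 0.15). Without replicate 6 of QCM + IgG the value of Nr1d2 was 0.68 (adjusted p = 0.0214). Per1 differed by −0.30 (SE 0.20, adjusted p = 0.38) and Tef by 0.28 (SE 0.15, adjusted p = 0.26), and these were −0.18 without replicate 3 of QCM + IgG and 0.17 without replicate 3 of SCM + anti-Ptk7. Usp2 differed by −0.58 (SE 0.31), not tested. Ciart alone among the other 9 was called, against 1.92% of all genes called higher and 1.14% called lower. Of the cell markers, 3 of 6 enteroendocrine and 1 of 4 tested Paneth cell markers were called lower and 1 of 7 enterocyte and 1 of 4 stem cell markers higher, and their part was not tested.

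The antibody comparisons asked what depended on Ptk7. In SCM, anti-Ptk7 against IgG gave Tef 0.34 (SE 0.15, adjusted p = 0.24), Ciart −0.41 (SE 0.21, adjusted p = 0.32), Dbp 0.59 (SE 0.40, adjusted p = 0.47) and Nr1d1 0.17 (SE 0.13, adjusted p = 0.56). Usp2 differed by 0.37 (SE 0.31), not tested, by 0.19 without replicate 1 of SCM + IgG, which also took Dbp to 0.33, by 0.71 without replicate 3 of SCM + IgG and by 0.23 without replicate 3 of SCM + anti-Ptk7. Dbp was at 1.13 by voom with TMM. Tef was at 0.21 without replicate 3 and Ciart at −0.26 without replicate 4 of SCM + anti-Ptk7. Nr1d1 was at 0.10 without replicate 3 of SCM + IgG or replicates 1 or 5 of SCM + anti-Ptk7. The other 5 differences were smaller than their SE. EdgeR called 0 of the 9 genes other than Usp2, against 0.581% of all genes called higher and 0.645% called lower. Of the 9, 1 (Tef) had an unadjusted p under 0.05, and DESeq2 and both voom fits called 0. Among the cell markers, 3 of 6 of enteroendocrine cells (Cck, Gip and Sct) and 1 of 7 of enterocytes (Alpi) were called lower. The enteroendocrine sum was 341 to 461 CPM with anti-Ptk7 and 381 to 555 CPM with IgG, and its part was not tested.

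In Wnt5a, anti-Ptk7 against IgG gave Per3 0.62 (SE 0.29, adjusted p = 0.30), Per1 −0.42 (SE 0.20, adjusted p = 0.30), Tef 0.33 (SE 0.15, adjusted p = 0.29) and Nr1d2 0.37 (SE 0.20, adjusted p = 0.40). Nr1d1 differed by 0.17 (SE 0.13) and Bhlhe40 by 0.16 (SE 0.13). The difference of Bhlhe40 was −0.03 without replicate 1 of Wnt5a + anti-Ptk7, which held its highest level, 584 CPM, and that of Nr1d1 was 0.08. Bhlhe40 was at 0.27 without replicate 1 and at 0.10 without replicate 2 of Wnt5a + IgG. Replicate 1 of Wnt5a + anti-Ptk7 also had the highest Nr1d1, 56.1 CPM, and the lowest Usp2, Per1 and Ciart of its group. EdgeR called 0 of the 10, against 0.452% of all genes called higher and 0.432% called lower. The genes with an unadjusted p under 0.05 were 3, namely Per1, Per3 and Tef, and DESeq2 and both voom fits called 0. The 95% interval of the difference of Usp2 ran from −0.90 to 0.35, so neither a fall nor a rise within it was distinguishable at this spread. Called lower were 2 of 6 enteroendocrine (Cck and Gip), 1 of 4 tested Paneth cell (Lyz1) and 1 of 7 enterocyte markers (Alpi), with a Paneth cell sum of 574 to 1266 CPM against 810 to 1699 CPM with IgG, and their part was not tested. The difference between the antibody effects in Wnt5a and SCM was called for 0 of the 9 genes other than Usp2, against 0% of all genes in either direction. None of the 9 had an unadjusted p under 0.05, DESeq2 and both voom fits called 0, and 602 of all genes had an unadjusted p under 0.05.

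Across the 36 libraries the genes were then compared with each other after the mean of each condition was subtracted. These correlations are a description over libraries that may share mice or batches of medium, which the labels do not give. Of 45 pairs, 30 had a positive r, 3 had an r over 0.5 and the median was 0.0922. Dbp was in all 3 of the highest. Its r was 0.526 with Tef (Spearman's rho 0.525) and 0.520 with Usp2 (rho 0.413). Its r of 0.718 with Per2 was the highest of the 45 but had a rho of 0.293, and it fell to 0.381 without replicate 1 of SCM + IgG. Usp2 had its lowest r with Nr1d1, −0.475, and with Bhlhe40, −0.461, and the second was −0.205 without the 2 farthest libraries. Nr1d1 and Bhlhe40 had an r of 0.486.

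**Figure D4:**
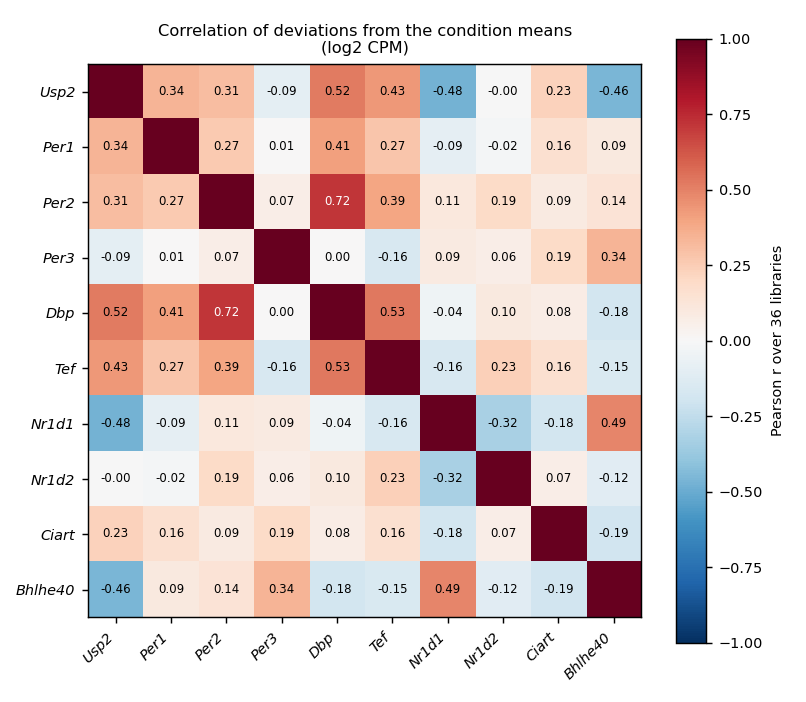
Pearson r of the deviations of log2 CPM from the condition means for each pair of the 10 genes, over 36 libraries; the colour scale runs from −1 (blue) to 1 (red). The highest values join Dbp with Per2, Tef and Usp2, and the lowest join Usp2 with Nr1d1 and Bhlhe40.

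Over log2 CPM of all 36 libraries with the condition differences kept, the 5 genes of 12456 most like Usp2 were 5330417C22Rik (r = 0.833), Anpep (0.832), Smoc2 (0.831), Syde2 (0.825) and Dhcr7 (0.824). The condition differences include the fall for which Usp2 was chosen, so this ranking and the ranks below are a description only. Anpep encodes a brush border peptidase, Smoc2 is a marker of crypt base stem cells and Dhcr7 makes cholesterol. The other 9 clock genes were farther down. The r was positive for 5, Ciart at rank 598 (r = 0.577), Per1 at rank 919, Dbp at rank 1219, Per2 at rank 2333 and Tef at rank 3302. It was negative for 4, Per3 at rank 7780 (r = −0.092), Nr1d2 at rank 9484 (r = −0.273), Nr1d1 at rank 10922 (r = −0.481) and Bhlhe40 at rank 12055 (r = −0.690). Within conditions, the genes most like Dbp were Xxylt1 (r = 0.855), Smtnl2 (0.835), Abat (0.776), Ptprs (0.770) and Nomo1 (0.767), which were 0.514 to 0.678 without replicate 1 of SCM + IgG.

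Other genes of the clock came from a list of 24, of which 22 were tested and Rorb and Bhlhe41 were not. Against complete media, QCM called 0 of the 22, beside 0.355% of all genes called higher and 0.0194% called lower. SCM called 2 of the 22 higher, beside 4.96% of all genes, namely Klf10, a clock-controlled transcription factor gene, by 0.79 (SE 0.11, adjusted p = 6.89e-06) and Fbxl21, a ubiquitin ligase of cryptochromes, by 3.89 (SE 1.08, adjusted p = 0.015), with none lower. Fbxl21 did not exceed 1.56 CPM in those 2 groups, so its fold change rests on few counts. Wnt5a called 1 of the 22 higher, beside 8.29% of all genes, Klf10 by 0.90 (SE 0.11, adjusted p = 4.17e-07). Klf10 rose from 147 ± 15.2 CPM in complete media to 254 ± 39.9 in SCM + IgG and 273 ± 32.7 in Wnt5a + IgG (SD, n = 6 each), without overlap. Against QCM, Klf10 was called higher in Wnt5a + IgG by 0.63 (adjusted p = 9.49e-05) and in SCM + anti-Ptk7 by 0.59 (adjusted p = 0.000713), as the 1 gene of the 22 called higher in each, beside 6.19% and 1.92% of all genes. SCM against QCM called 0 of the 22, and so did anti-Ptk7 in SCM and in Wnt5a, beside 0.142% to 0.761% of all genes in either direction.

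Of the core loop genes Arntl, Clock, Npas2, Cry1, Cry2 and Nfil3, only Nfil3 was called, in 1 comparison. Arntl, the activator that Nr1d1 represses, stood at 46.2 ± 5.43 CPM in complete media, 47.2 ± 4.95 in QCM, 38.8 ± 6.26 in SCM + IgG and 34.7 ± 5.91 in Wnt5a + IgG (SD, n = 6 each). Its log2 fold change in Wnt5a was −0.41 against complete media (SE 0.11, adjusted p = 0.00764) and −0.45 against QCM (SE 0.11, adjusted p = 0.00408), both short of the fold-change cutoff and with overlapping libraries. Clock differed by 0.46 in Wnt5a + IgG against QCM (SE 0.17, adjusted p = 0.0485). Cry1 differed by −0.20 in Wnt5a + IgG against complete media (SE 0.13, adjusted p = 0.27) and Npas2, a relative of Clock, by −0.38 (SE 0.21, adjusted p = 0.21). All differences of Cry2 in the comparisons with complete media were smaller than their SE. Nfil3, a repressor that competes with Dbp and Tef for D-boxes, was called lower in SCM + anti-Ptk7 against QCM by −0.78 (SE 0.17, adjusted p = 0.00243), the 1 of the 22 called lower there, beside 1.14% of all genes. It went from 27.2 ± 5.67 CPM in QCM to 15.8 ± 4.22 CPM (SD, n = 6 each), with overlapping libraries.

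**Figure D5:**
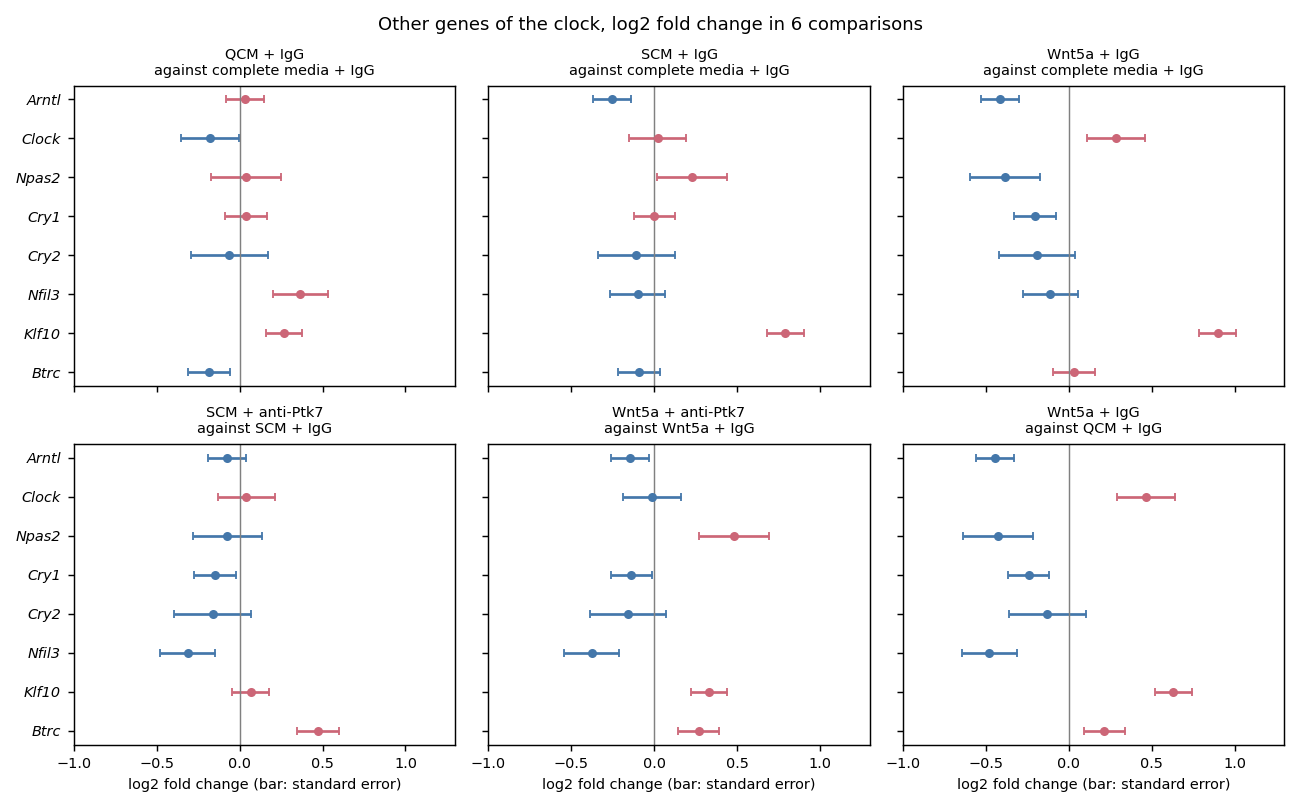
Log2 fold change (x axis) of 8 other genes of the clock in 6 comparisons, with the standard error of the fit as bars; red points are above 0 and blue points below. Klf10 is higher by 0.79 and 0.90 in SCM and Wnt5a against complete media, and Arntl is at −0.41 in Wnt5a.

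Clock genes also respond to glucocorticoids and to serum, and lists of such genes were read beside them. Of 6 tested genes of the glucocorticoid response, SCM against complete media called Errfi1 higher and Fkbp5 lower, and Wnt5a called Errfi1 and Klf9 higher and Fkbp5 lower. Of all genes, 4.96% were called higher and 1.12% lower in SCM, and 8.29% and 1.88% in Wnt5a. In each comparison 4 of the 6 had values above 0. Fkbp5, a co-chaperone of the glucocorticoid receptor, had a log2 fold change of −1.03 in each (SE 0.28; adjusted p = 0.0135 and 0.00725). Of 6 tested immediate early genes, Fos and Junb were called higher in both comparisons, beside 4.96% and 8.29% of all genes. The log2 fold changes of Fos were 1.65 and 1.83. QCM called 0 genes of either list, beside 0.355% of all genes called higher and 0.0194% called lower. The relatives of Usp2, Usp21 and Usp8, were not called in any of these comparisons, with log2 fold changes between −0.09 and 0.09. Whether these genes have a part in the levels of the clock genes was not tested.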

How the data were processed

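The authors sequenced RNA of 36 organoid cultures (SMART-Seq v4 and Nextera XT), aligned the reads to NCBI Build 38 (mm10 in the submitters' processing notes) with GSNAP and deposited whole-number counts per gene without normalization. The study's methods state that reads in coding sequences were counted, and the gene annotation is not given in the sources used here.

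Analysis used R 4.3.3. Groups came from the labels. Genes kept by filterByExpr were TMM-scaled and fitted in a single edgeR 4.0.16 quasi-likelihood model of 6 group means, with Benjamini-Hochberg adjustment over 15497 genes. Log2 CPM used a prior count of 2. CPM is given as mean ± SD. The study's methods take replicates as individual mice unless otherwise stated, and the labels do not tie a library to a mouse. Usp2, selected on its fall in senescent medium, was not tested in any comparison that uses complete media + IgG, QCM + IgG or an SCM group. No 2 libraries of a group agreed within counting noise. The fits were tested on simulated data. Alternatives included limma 3.58.1 (voom, the study's method), DESeq2 1.42.0, other scalings and filters, and each library left out. Names and positions came from GENCODE (GRCm38) and promoters from RefSeq. The members and gene lists were chosen with earlier results of these data known. The named genes are the 10 members, the 6 core loop genes, called genes of the lists and the 5 genes most like Usp2 or Dbp.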

Additional observations from a re-analysis of the deposited data

Results flagged for a closer look

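In 8 of the 60 groups of 6 libraries (10 genes in 6 conditions), the highest or lowest library stood apart from the nearest by more than Dixon's 95% critical value for a group of this size. Chance alone marks about 1 group in 20. In Wnt5a + anti-Ptk7, replicate 1 was low for Usp2 at 1.26 CPM (the others at 5.50 to 8.43), for Per1 at 10.7 CPM (14.7 to 16.8) and for Ciart at 4.42 CPM (6.79 to 8.71). In SCM + IgG, replicate 1 was low for Per2 at 3.26 CPM (15.7 to 27.7) and for Dbp at 0.130 CPM, which is 2 counts (2.58 to 5.25). Replicate 5 of the same group was high for Per3 at 11.6 CPM (3.58 to 5.39). In complete media + IgG, replicate 3 was high for Usp2 at 24.8 CPM (14 to 17), and replicate 2 was low for Per1 at 10.5 CPM (21.5 to 28). The 2 libraries named replicate 1 hold 5 of the 8 values.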

How the results depend on the processing

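The counts below are of the genes called among the 10, without Usp2 where it was not tested, and the cause of each change was not tested. A fit blocked on the replicate number gave the same count in each comparison (2 for SCM and 2 for Wnt5a against complete media). The block took the genes called over the whole table from 55 higher and 3 lower to 166 and 12 for QCM against complete media, from 118 and 22 to 425 and 71 for SCM against QCM, from 90 and 100 to 163 and 236 for anti-Ptk7 in SCM, and from 70 and 67 to 131 and 124 for anti-Ptk7 in Wnt5a. For the difference between the antibody effects it was 3 higher against 0. The labels do not tie numbers to mice, 34 of 90 same-number pairs had an r over 0.1, and 16 of 36 libraries were most like one of their own number. Libraries of different groups had a mean r of 0.0920 where they shared a number and of −0.0180 where they did not. The main fit takes no account of the number.

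With only the groups compared, SCM + anti-Ptk7 against QCM had 0. Upper-quartile scaling, library size alone and quantile-normalized voom each called 1 for SCM against complete media. Quantile-normalized voom called 0 for Wnt5a against QCM, which had 2 without a fold-change cutoff. With a fold change over 2 the count was 0 for SCM and for Wnt5a against complete media, and 0 for Wnt5a and for SCM + anti-Ptk7 against QCM. Leaving out 1 library gave 1 to 2 for SCM against complete media (1 without any of 12 libraries: replicates 2, 3 and 5 of QCM, 2 and 5 of SCM + IgG, 1 and 6 of complete media, 1, 4 and 6 of Wnt5a + IgG, and 1 and 2 of Wnt5a + anti-Ptk7). Bhlhe40 lost its call in these 12 and in 2 more, without replicate 3 of SCM + IgG or replicate 2 of complete media, where Per1 was called instead and the count stayed at 2. It gave 0 to 2 for Wnt5a against QCM (0 without replicate 5 of either, 2 without replicate 6 of QCM) and 0 to 2 for SCM + anti-Ptk7 against QCM (0 without replicate 3 and 2 without replicate 6 of QCM). The median r of the gene pairs, 0.0922, was 0.120 with library size alone. Bhlhe40 under anti-Ptk7 in Wnt5a ranged from −0.0279 (without replicate 1 of Wnt5a + anti-Ptk7) to 0.27 over libraries left out, and among the differences at or over their standard error it was the 1 that changed sign. Bhlhe40 in SCM against complete media fell below the fold-change cutoff at 0.58 with upper-quartile scaling and 0.57 with library size alone.

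Quantile-normalized voom moved the split of all genes called from 768 higher and 174 lower to 550 and 297 for SCM against complete media, from 1285 and 291 to 1015 and 562 for Wnt5a, from 55 and 3 to 33 and 6 for QCM, from 118 and 22 to 122 and 48 for SCM against QCM, from 960 and 488 to 829 and 700 for Wnt5a against QCM, and from 297 and 176 to 245 and 241 for SCM + anti-Ptk7 against QCM. Dbp had no value where at least 10 counts were asked of every library. Depth limits most the genes with the fewest counts, Dbp, Per3, Usp2 and Ciart, at medians of 72 to 105.5.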
